A study of Mus musculus with 2 samples.

Results

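B16F10 melanoma cells that had grown in the lungs of wild-type mice were compared here with the same cells grown in the lungs of Prf1-/- mice, which lack perforin. B16F10 is a pigmented mouse melanoma line that seeds the lung, and the cells carried GFP. The labels place the genotype in the host, so both groups share the same tumour line. Lung tumours of both genotypes were digested for 20 minutes at 37 °C per the labels, live cells with GFP and without CD45 were sorted, and each of the 3 sources of the series (WT lung, Prf1-/- lung, Prf1-/- bone) received 1 hashtag antibody before all were pooled into 1 droplet library. The number, age and sex of the mice, and how the melanoma cells were given, are not given in the sources used here. A cell was assigned to a group where its largest hashtag count was at least 2 times the second, and it had to hold at least 1000 genes and at most 15% mitochondrial unique molecular identifiers (UMIs). This left 1520 cells of Prf1-/- lung and 1227 of WT lung, 2747 of 15961 barcodes in the RNA matrix. Of the lung cells, 107 had a hashtag ratio between 2 and 2.5, and a further 86 that lay between 1.5 and 2 were left out.

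Perforin forms the pores through which cytotoxic T cells and NK cells pass granzymes into a target cell. The same lymphocytes release interferon gamma, which acts on the genes of tumour cells through its receptor. Type I interferons act on an overlapping set of genes. Both raise the machinery that cuts proteins into peptides, loads them on MHC class I molecules and shows them to CD8 T cells.

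Each group is 1 hashtag group with no replicate, so no test was made. A level is the summed UMIs of a gene per 1000000 UMIs of its group (CPM), and intervals are 95% intervals for counting error alone, with no spread between mice or cells. Prf1-/- lung held 4726709 UMIs at a median of 2826.5 per cell, and WT lung held 3865546 at a median of 2909. The median mitochondrial share was 2.46% in Prf1-/- lung and 2.5% in WT lung. Prf1 itself had 0 UMIs in both groups, under a floor of 3 UMIs that equals 0.635 CPM in Prf1-/- lung and 0.776 in WT lung, and since melanoma cells are no source of perforin this does not check the genotype.

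The cells carried melanoma transcripts in both groups. At least 3 of 8 melanoma markers were seen in 1518 cells (99.9%) of Prf1-/- lung and in 1225 (99.8%) of WT lung, and the summed markers stood at 14170 and 13937 CPM. All 12 T and NK cell markers were at 0 in both groups, as was Ptprc, the gene of CD45. Summed alveolar and airway epithelial markers stood at 14.4 CPM in Prf1-/- lung and 206 in WT lung, with Epcam and Krt18 at 0 in both. Markers of monocytes, macrophages and dendritic cells summed to 4.65 and 20.7 CPM with 9 of 13 at 0 in both, endothelial markers at 67.5 and 84.6, and fibroblast markers at 6.98 and 12.7. These 4 sums stood higher in WT lung, the group in which the interferon genes described below were also higher. The first 3 rested mostly on 1 gene each in WT lung: Sftpc at 168 CPM, Lyz2 at 17.85 and Ramp2 at 59.8. Also higher in WT lung were mesothelium at 0.212 against 3.62 CPM and pericyte and smooth muscle at 2.33 against 3.10. So were B and plasma cells at 2.33 against 3.36 and erythroid markers at 0.212 against 0.517. Other sums stood higher in Prf1-/- lung: pan-immune at 7.19 against 4.92 CPM, Schwann cell at 224 against 211, and neutrophil and platelet each at 0.846 against 0.259. The erythroid, neutrophil and platelet sums in WT lung lay under the floor of 3 UMIs, 0.776 CPM.

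Of 5749 genes with a mean of at least 20 CPM, 32 (0.557%) were at least 1.5-fold lower in Prf1-/- lung and 11 (0.191%) at least 1.5-fold higher, on a log2 scale with 1 CPM added to each side. The median log2 ratio was 0.00, with a 5th percentile of -0.28 and a 95th of 0.27, so most genes stood close together in the 2 groups. Of the 32 lower genes, 25 belonged to lists of interferon-induced and antigen-presentation genes, whose 72 measured members made up 1.3% of all measured genes. None of the 11 higher genes did. The lists were chosen with earlier results of these data known, so these counts describe the genes and are no independent support. At 2-fold, 8 genes were lower and 0 higher, a count that rests on no test.

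**Figure D1:**
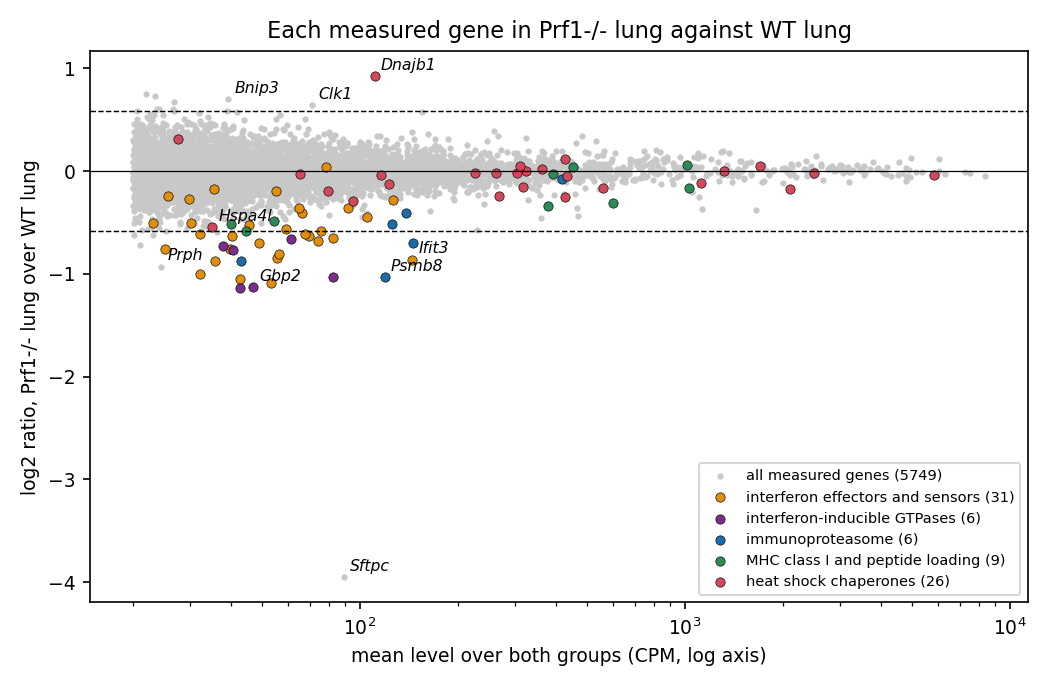
Log2 ratio of Prf1-/- lung over WT lung (vertical axis) against the mean level of both groups in CPM (log axis) for 5749 genes. Grey points are all measured genes, coloured points are members of 5 lists, and dashed lines mark 1.5-fold. All GTPase and immunoproteasome genes and 30 of 31 effector genes lie below 0, and Dnajb1 and Sftpc lie apart from the rest.

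The immunoproteasome stood lower in Prf1-/- lung, while the standard proteasome did not differ by 1.5-fold in any subunit. The immunoproteasome replaces the 3 catalytic subunits of the standard particle by interferon-induced ones, and it shapes the peptides offered to CD8 T cells. Psmb8, which encodes one of these catalytic subunits (ENSMUSG00000024338, chr17:34198195-34201454 in GRCm38.p6), had 368 UMIs in Prf1-/- lung and 619 in WT lung, or 77.9 against 160.1 CPM. Its ratio was 0.486 (0.426 to 0.554). Psmb9, the second, stood at 30.04 against 55.9 CPM, a ratio of 0.538 (0.432 to 0.668), and Psmb10, the third, at 110.6 against 179.8, a ratio of 0.615 (0.548 to 0.690). All 3 interferon-induced catalytic subunits were thus past 1.5-fold. The PA28 activator caps the same particle, and its genes stood at a ratio of 0.697 (0.617 to 0.788) for Psme2 and 0.752 (0.670 to 0.845) for Psme1. Pomp, a maturation factor that both kinds of proteasome use, had a ratio of 0.948 (0.887 to 1.01).

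Over the list, 3 of 6 measured immunoproteasome genes were lower and 0 higher, against 0.557% and 0.191% of all measured genes. All 6 had a log2 ratio below 0 against 49.3% of all measured genes, and the median log2 ratio was -0.61. Their summed level, with the 1 member under 20 CPM, was 852 CPM in Prf1-/- lung (825 to 878) and 1137 in WT lung (1103 to 1171). Of the 30 standard proteasome genes 0 passed 1.5-fold in either direction, their median was -0.03, and their sum stood at 8329 against 8567 CPM. The lowest of them was Psmd11, a lid subunit, at a ratio of 0.893 (0.810 to 0.985), and Psma3, Psma7 and Psmb1, subunits of the core, had ratios of 0.997, 0.960 and 1.04.

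MHC class I molecules and their loading machinery differed less, and by different amounts. Tapbp, the tapasin gene, whose product bridges MHC class I and the peptide transporter, stood at 35.5 CPM in Prf1-/- lung and 53.8 in WT lung, a ratio of 0.661 (0.536 to 0.813). Tap1, which encodes a subunit of that transporter, stood at 32.8 against 47.3 CPM, a ratio of 0.693 (0.556 to 0.863). Its gene lies between Psmb9 and Psmb8 in the MHC region of chromosome 17. The classical heavy chains H2-K1 and H2-D1 had ratios of 0.789 (0.736 to 0.846) and 0.805 (0.761 to 0.851), and H2-T22, a non-classical one, 0.708 (0.587 to 0.854). B2m, the shared light chain, had a ratio of 0.894 (0.857 to 0.932), and the general chaperones of the secretory pathway Calr and Pdia3 had 1.04 and 1.03. Of 9 measured members 0 were lower and 0 higher, 7 lay below 0, and the median was -0.31. Tapbp, at a log2 ratio of -0.5848 with 1 CPM added to each side, lay just short of the 1.5-fold line. The sum stood at 3886 CPM against 4247, a ratio of 0.915 (0.896 to 0.934).

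Interferon-inducible GTPases had the lowest median of the lists. These proteins gather on the vacuoles of intracellular parasites and bacteria, and their genes respond strongly to interferon gamma. All 6 measured members were lower and 0 higher, against 0.557% and 0.191% of all measured genes. Their median log2 ratio was -0.90, and 12 others were under 20 CPM. Ifi47 stood at 26.2 CPM in Prf1-/- lung (124 UMIs) and 58.98 in WT lung (228 UMIs), a ratio of 0.445 (0.354 to 0.556). Gbp2, a guanylate-binding protein gene, stood at 28.98 CPM (137 UMIs) against 64.4 (249 UMIs), a ratio of 0.450 (0.363 to 0.556). Iigp1, of the immunity-related GTPases, stood at 53.9 CPM (255 UMIs) against 111.2 (430 UMIs), a ratio of 0.485 (0.414 to 0.568). Igtp, Irgm1 and Gbp7 followed at ratios of 0.579, 0.596 and 0.627. Together the list held 265 CPM in Prf1-/- lung (250 to 280) and 494 in WT lung (472 to 517).

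**Figure D2:**
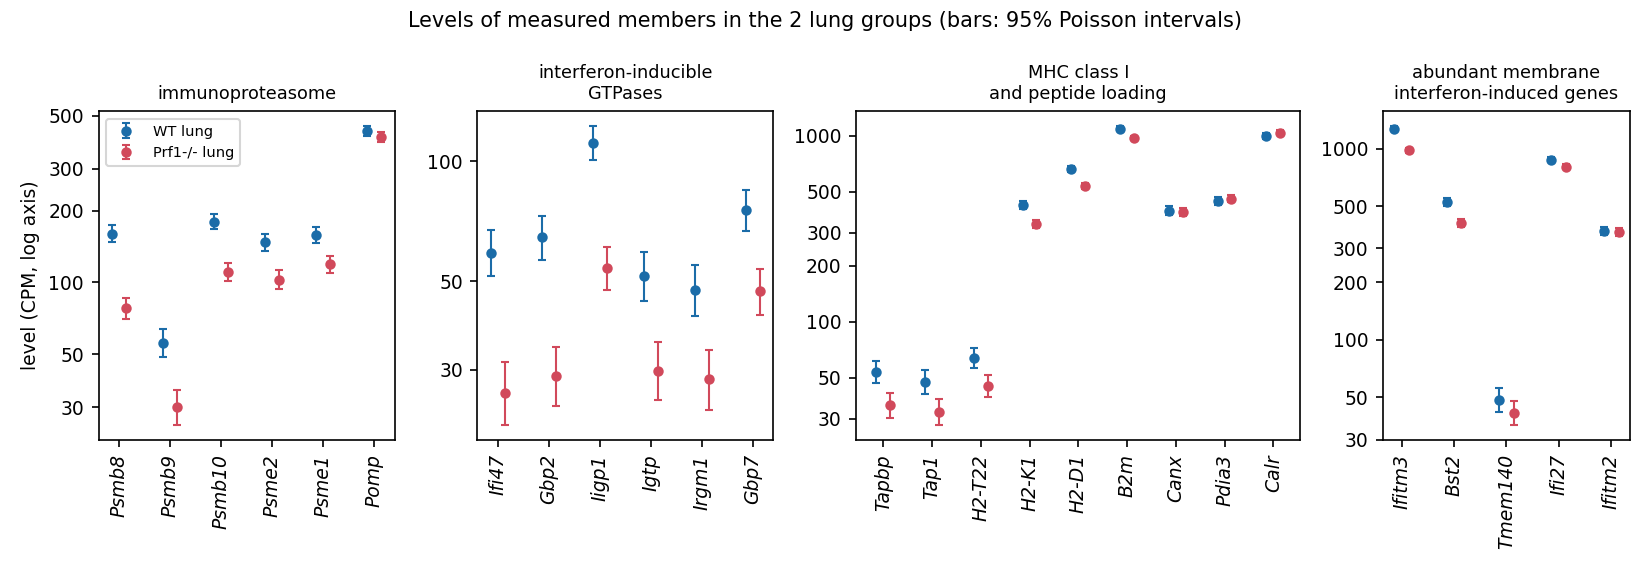
Levels in CPM (log axes) of the measured members of 4 lists in WT lung (blue) and Prf1-/- lung (red), ordered by ratio within each list. Bars are 95% Poisson intervals. The intervals of all 6 GTPase genes and of 5 of the 6 immunoproteasome genes lie apart, and those of Pomp, Canx, Pdia3, Calr, Tmem140 and Ifitm2 overlap.

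Interferon effectors and sensors supplied 16 of the 32 lower genes. These are the proteins that sense foreign nucleic acid, block translation or virus release and conjugate ISG15. Of 31 measured members, those 16 were lower and 0 higher, against 0.557% and 0.191% of all measured genes. Of the members, 30 lay below 0, and the median was -0.61. Apol9a, an apolipoprotein L gene, stood at 33.6 CPM against 72.4, a ratio of 0.464 (0.380 to 0.566). Zbp1, a sensor of Z-form nucleic acid that can start cell death, stood at 27.5 against 57.9, a ratio of 0.475 (0.379 to 0.592). Ifit3, a member of the tetratricopeptide proteins that bind foreign RNA, stood at 102.2 against 186.5 CPM, a ratio of 0.548 (0.487 to 0.616). The HIN-200 genes Mndal and Ifi203 had ratios of 0.490 and 0.536, Trim30a 0.551, and Rnf213, a giant ubiquitin ligase gene, 0.565.

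Isg15, the ubiquitin-like modifier, had a ratio of 0.641 (0.543 to 0.757), and Ube2l6 and Herc6, its conjugating enzyme and ligase, 0.578 and 0.621. The other members past 1.5-fold were Apol9b, Parp12, Ifi35, Ifit2, Xaf1 and Ifit3b, with ratios from 0.583 to 0.648. In WT lung 12.6% of the Ifit2 UMIs came from 1 cell, the highest such share among the lower genes other than Sftpc. Members that stayed under 1.5-fold included Lap3 at 0.819, Rsad2, the antiviral viperin gene, at 0.777, and Lgals3bp at 0.732. Apol9a and Apol9b, Ifit3 and Ifit3b, and Mndal and Ifi203 are close paralogues, and the sources used here do not say how reads that match both were counted, so the split within each pair is uncertain.

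The abundant membrane proteins that interferon induces differed less than the intracellular effectors. Ifitm3, which blocks virus entry, had a ratio of 0.773 (0.742 to 0.805) and Bst2, the tetherin gene, 0.778 (0.730 to 0.828), while Ifi27 had 0.919 and Ifitm2 0.986. None of 5 measured members reached 1.5-fold, and the sum had a ratio of 0.842 (0.821 to 0.863).

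Genes of interferon reception and signalling were mostly close to 1. Of 12 measured members 0 were lower and 0 higher, and the median was -0.11. The lowest were the transcription factor genes Irf7 at a ratio of 0.682 (0.534 to 0.870) and Irf1 at 0.700 (0.543 to 0.901), which interferons themselves induce. Irf9, a factor of the type I response, had a ratio of 0.818 (0.638 to 1.05). The receptor and kinase genes Ifnar2 and Jak1 had ratios of 0.849 (0.720 to 1.001) and 0.947 (0.822 to 1.09), and Stat3 one of 1.03.

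No single measured gene through which tumour cells draw or engage lymphocytes reached 1.5-fold. Few genes of any kind did, with 0.557% of all measured genes lower and 0.191% higher. The chemokine gene Cxcl10, whose product attracts CXCR3-bearing T cells, stood at 297 CPM in Prf1-/- lung and 361 in WT lung, a ratio of 0.824 (0.764 to 0.888), and Ccl5 at 190 against 165, a ratio of 1.15 (1.04 to 1.28). The other 9 chemokine genes were under 20 CPM, 7 of them at 0 in both groups. The chemokine sum was 496 against 536 CPM, a ratio of 0.925 (0.872 to 0.982). Its side depended on the cells taken: it was 1.40 (1.21 to 1.62) in cells with 2000 and more genes, and 1.46, 0.752, 0.609 and 1.13 over 4 classes of rising hashtag total, set within each group. With a cut shared by both groups, a hashtag total of 937, the chemokine sum was lower in Prf1-/- lung on both sides. Of MHC class II genes only Cd74, the invariant chain, passed 20 CPM, with a ratio of 0.762 (0.571 to 1.02). The sum of the 9 MHC class II genes was 51.0 against 74.5 CPM, a ratio of 0.684 (0.574 to 0.815), and ran from 0.363 in the cells with the fewest genes to 1.07 (0.736 to 1.56) in the next class. It was 1.00 (0.666 to 1.51) in cells with fewer than 3 cell cycle UMIs. Of 14 measured ligands of lymphocytes and genes of resistance to killing, 0 were lower and 0 higher, and the median was -0.04, with Casp8 at 0.891, Lgals9 at 0.872 and Serpinb6a at 0.961.

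Promoters of the lower genes were searched for a sequence that interferon-activated factors are known to bind. The RefSeq promoter table (GRCm38.p6) covers 250 bases before to 50 after each gene's start, and it held 28 of the 32 lower genes. The core of an interferon-stimulated response element was searched on both strands as GAAA, any 2 bases and GAAA again, which reads TTTC, 2 bases and TTTC on the other strand. It was present in 12 of 28 lower genes (42.9%), in 3.99% of all 27025 genes with a promoter and in 3.86% of the 4634 measured ones. It was present in 4 of 5 GTPase genes, 14 of 26 effectors and 4 of 4 abundant membrane genes, but in 2 of 9 MHC class I genes and 1 of 6 immunoproteasome genes. None of the 9 higher genes in the table held it.

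The 250 bases before the start of 3 lower genes, Gbp2, Igtp and Apol9a, are shown because they carry this motif, 5′ to 3′ along the gene with the matched letters in capitals. The 2 matches in Apol9a overlap. A match describes these letters and is no evidence of a bound factor.

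Gbp2, chr3:142620413-142620662, plus strand: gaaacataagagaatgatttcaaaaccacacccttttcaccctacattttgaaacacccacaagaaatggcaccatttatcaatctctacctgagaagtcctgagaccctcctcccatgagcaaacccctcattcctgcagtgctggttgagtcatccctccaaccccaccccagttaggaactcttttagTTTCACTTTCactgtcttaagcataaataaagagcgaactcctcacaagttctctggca
Igtp, chr11:58199306-58199555, plus strand: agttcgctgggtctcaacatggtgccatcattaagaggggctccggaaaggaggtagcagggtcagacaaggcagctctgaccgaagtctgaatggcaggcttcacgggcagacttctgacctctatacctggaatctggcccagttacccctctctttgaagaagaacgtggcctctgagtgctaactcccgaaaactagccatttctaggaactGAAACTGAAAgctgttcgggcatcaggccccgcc
Apol9a, chr15:77411081-77411330, minus strand: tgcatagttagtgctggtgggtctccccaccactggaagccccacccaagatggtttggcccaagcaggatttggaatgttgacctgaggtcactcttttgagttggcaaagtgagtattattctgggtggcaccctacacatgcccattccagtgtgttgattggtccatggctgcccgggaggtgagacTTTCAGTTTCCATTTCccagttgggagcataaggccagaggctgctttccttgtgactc

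The difference was not confined to a few cells, but it was wider at the 90th and 95th percentiles of the cells than at the median. For this, the 81 genes of the immunoproteasome, GTPase and effector lists were summed per cell after each cell had been thinned to 1500 UMIs, which left out 1 cell of Prf1-/- lung. The median cell then held 3 such UMIs in Prf1-/- lung and 4 in WT lung, with means of 4.10 and 6.26. The 75th percentiles were 5 and 8, the 90th 8 and 13, and the 95th 11 and 19. Cells with 10 or more made up 6.78% of Prf1-/- lung (5.57 to 8.16) and 17.7% of WT lung (15.6 to 19.9), and without thinning 27.1% and 44.0%. The most loaded 5% of cells held 23.8% of these UMIs in Prf1-/- lung and 22.7% in WT lung, and the highest single cells had 65 and 70. The summed standard proteasome had a median of 12 UMIs in both groups and 90th percentiles of 18 in both.

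**Figure D3:**
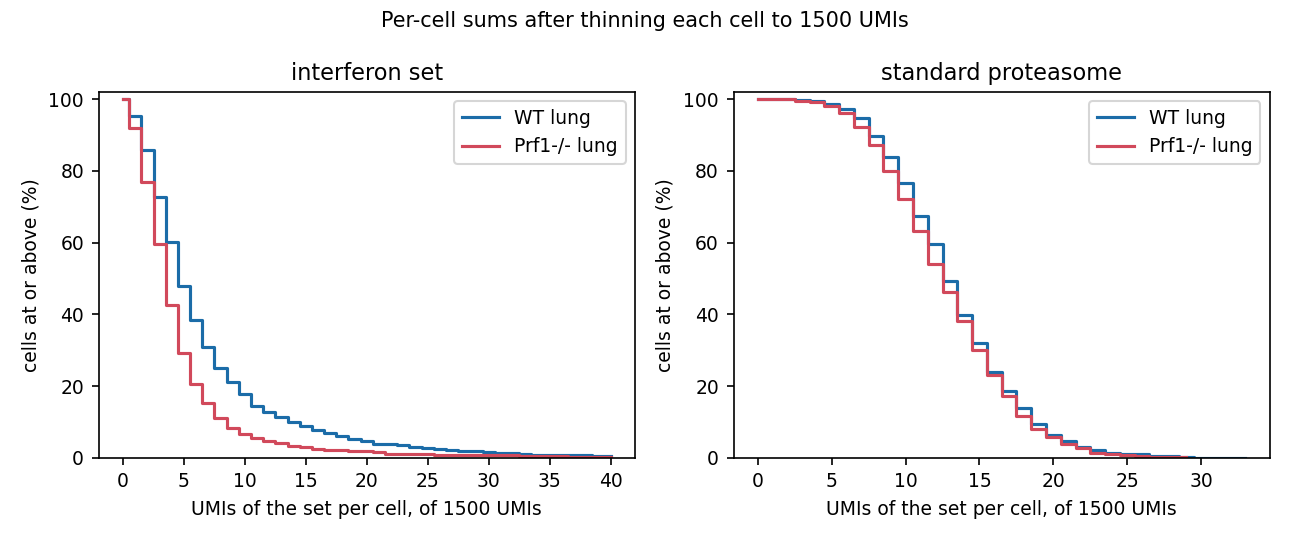
Share of cells (vertical axis, %) that held at least a given number of UMIs of a gene set (horizontal axis) after thinning to 1500 UMIs per cell, for 1519 cells of Prf1-/- lung (red) and 1227 of WT lung (blue). For the 81 interferon genes the WT lung curve lies above from 1 UMI on, and at 10 UMIs the shares are 6.78% and 17.7%, while the curves of the 30 standard proteasome genes lie close together.

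Interferon and MHC class I levels also moved with the amount of hashtag on a cell. Hashtag antibodies for mouse cells commonly bind CD45 and MHC class I, and the labels do not name the target of those used here. The hashtag matrix listed no barcode with fewer than 503 counts and held 3374 (35.0%) of the 9644 barcodes that passed the cell filter. The median hashtag total was 1098 in Prf1-/- lung and 794 in WT lung. Cells were divided into 4 equal classes by hashtag total within each group, so the same class holds different hashtag amounts in the 2 groups. In WT lung the 81 interferon genes stood at 3179, 3452, 4431 and 5022 CPM from the lowest class to the highest, and in Prf1-/- lung at 2286, 2363, 2947 and 3282. The ratio between the groups was 0.719, 0.685, 0.665 and 0.653.

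The level thus climbed with hashtag amount within both groups, and Prf1-/- lung stood lower in each of the 4 classes. These classes do not match the groups for hashtag amount. A cut shared by both groups was a hashtag total of 937. The GTPase, MHC class II and chemokine ratios lay under those over all cells on both sides of it. Those of the standard proteasome, receptors, lymphocyte ligands and chaperones did so only above it. For MHC class I genes the WT lung levels were 3669, 3914, 4212 and 5060 CPM and the Prf1-/- lung levels 3499, 3604, 3895 and 4446. For Psmb8 the ratios were 0.436, 0.557, 0.439 and 0.507, and for the GTPase list 0.528, 0.419, 0.536 and 0.585. The 6270 filtered barcodes that the hashtag matrix does not list cannot be assigned to a source. Their interferon genes stood at 2831 CPM, near the 2748 of Prf1-/- lung and under the 4066 of WT lung, and their MHC class I genes at 3380. What the listing of barcodes by hashtag count contributed to the levels was not tested.

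**Figure D4:**
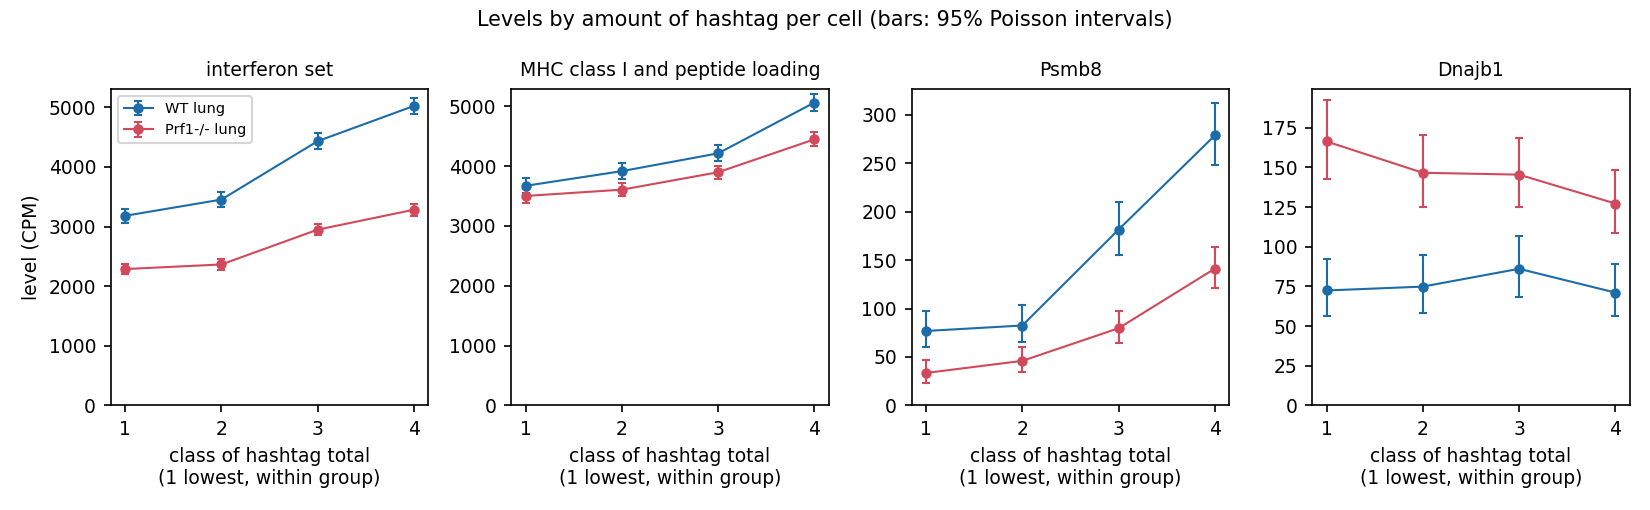
Levels in CPM of the 81 interferon genes, the MHC class I list, Psmb8 and Dnajb1 in 4 equal classes of cells ranked by hashtag total within WT lung (blue) and Prf1-/- lung (red), with 95% Poisson intervals. Interferon genes stand lower and Dnajb1 higher in Prf1-/- lung in each class.

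The summed level of these 81 genes was lower in Prf1-/- lung at each depth and in each cell cycle class, while single genes varied more. In 4 classes of cells with rising numbers of detected genes, from 1000 in the lowest to 2000 and more in the highest, their ratio was 0.608, 0.738, 0.649 and 0.714. It was 0.751 (0.716 to 0.788) in cells with fewer than 3 UMIs of S and G2/M genes after thinning (425 of Prf1-/- lung and 334 of WT lung), and 0.654 (0.637 to 0.672) in the other cells. The smaller difference thus lay in cells with few cell cycle transcripts, where Psmb8 had a ratio of 0.660 (0.490 to 0.886) against 0.451 (0.388 to 0.522). The GTPase list had 0.541 and 0.534 in these classes. In cells with 2000 and more genes the intervals of Iigp1 and Ifit3 included 1, at ratios of 0.764 (0.543 to 1.07) and 0.818 (0.618 to 1.08), whereas Ifit3 was at 0.347 in the class with the fewest genes. H2-K1 had a ratio of 0.981 (0.857 to 1.12) in cells with few cell cycle UMIs and 0.728 in the others. A further check left out cells with a UMI of some markers of other cell types. These were the epithelial, monocyte, macrophage and dendritic cell, T and NK cell, and B and plasma cell lists, and Ptprc. Of the endothelial genes only Pecam1, Cdh5, Kdr and Cldn5 were used, and fibroblast and other remaining markers were not. This kept 1422 cells of Prf1-/- lung and 1141 of WT lung, in which the lower genes numbered 30 and the GTPase list had a ratio of 0.558.

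Prf1-/- bone, the third source, gives these genes another level without perforin. The 385 bone cells stood at 1419 CPM for the immunoproteasome, 557 for the GTPases, 1967 for the effectors and 4616 for MHC class I, and all but the effectors stood above WT lung. Psmb8 stood at 287 CPM in bone, Ifi47 at 66.2 and Ifit3 at 103.9. Site, digestion time (30 minutes for bone) and group cannot be told apart in that comparison.

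Of the 7 lower genes outside these lists, Lgals3 had the lowest ratio apart from Sftpc. Lgals3 encodes galectin-3, a sugar-binding protein of the cell surface and cytosol, and stood at 54.6 CPM (258 UMIs) in Prf1-/- lung against 112.8 (436 UMIs) in WT lung, a ratio of 0.484 (0.413 to 0.566). Its level in WT lung was the higher in every class of cells, but the size of the difference varied between them. Over 4 classes of rising gene number the Lgals3 ratio was 0.508, 0.883 (0.648 to 1.21), 0.275 (0.201 to 0.372) and 0.508, so in the second class its interval included 1. It ran from 0.340 to 0.742 (0.532 to 1.03) over 4 classes of rising hashtag total, and was 0.251 in cells with fewer than 3 cell cycle UMIs against 0.581 in the others. Lgals3 stood at 13.9 CPM in bone. Without the cells left out above for some markers of other types, the Lgals3 log2 ratio was -0.89 against -1.03 over all cells. Of the other galectins Lgals7 had a ratio of 0.739 (0.694 to 0.787) and Lgals1 0.929. Prph, the intermediate filament gene peripherin, had a ratio of 0.510 (0.380 to 0.683), and St6gal1, a sialyltransferase gene, 0.593 (0.434 to 0.808). Dym, Sft2d1 and Sdhaf3 had ratios from 0.637 to 0.654.

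Sftpc, the surfactant protein C gene of alveolar type II cells, showed the lowest ratio of all, 0.0590 (0.0429 to 0.0794), but it rests on few cells. Of its 651 UMIs in WT lung, 92.6% came from 3 cells with 273, 233 and 97 each, and the 47 UMIs in Prf1-/- lung lay in 47 different cells.

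Dnajb1 had the highest ratio of all measured genes. It encodes a J-domain co-chaperone that hands clients to Hsp70 and belongs to the heat shock response (ENSMUSG00000005483, chr8:83608175-83612653 in GRCm38.p6). It stood at 145.6 CPM (688 UMIs) in Prf1-/- lung and 76.1 (294 UMIs) in WT lung, a ratio of 1.91 (1.67 to 2.20), with 87.7 CPM in bone. The ratio was 2.30, 1.96, 1.69 and 1.79 in the 4 hashtag classes, and it was 2.75, 2.02, 1.75 and 1.501 (1.10 to 2.07) in the 4 classes of rising gene number. Bag3 and Hspa4l, which are also heat shock genes, had ratios of 1.248 (0.957 to 1.63) and 0.676 (0.534 to 0.856). Of 26 measured chaperone genes 0 were lower and Dnajb1 alone was higher, and the median of the list was -0.03. The constitutive chaperone genes Hspa8 and Hsp90ab1 had ratios of 0.889 (0.864 to 0.916) and 0.972. The heat shock element, searched on both strands as GAA, TTC and GAA with any 2 bases between, was in 5 of 21 chaperone promoters (23.8%) and 0.662% of all, and the Dnajb1 windows held no match.

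The other 10 higher genes were of mixed function. The hypoxia genes Bnip3, of mitophagy, and Kdm3a, a histone lysine demethylase, stood at 48.9 against 29.8 CPM and 33.2 against 20.4, with ratios of 1.64 (1.31 to 2.07) and 1.63 (1.23 to 2.16). Of 8 measured hypoxia genes 0 were lower and 2 higher, against 0.557% and 0.191% of all measured genes, and the median log2 ratio was 0.20. Clk1, a kinase of splicing factors, stood at 87.2 against 55.4 CPM, a ratio of 1.57 (1.33 to 1.87), but its log2 ratio turned to -0.088 in cells with 2000 or more genes, as did that of Spast (-0.24), a microtubule-severing enzyme gene with a ratio of 1.53 over all cells. Bend6, Trak2, Rev3l, Wdr76, Sulf2 and Scn1a had ratios from 1.53 to 1.73, each from 118 to 153 UMIs in Prf1-/- lung. Just under the 1.5-fold line on the log2 scale lay the chromatin factor gene Hmga2 at 0.58 and Lmo1, a LIM-domain gene, at 0.57.

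Immediate-early and dissociation stress genes lay slightly higher in Prf1-/- lung. Of 20 measured members 0 were lower and 0 higher, 17 lay above 0 against 50.7% of all measured genes, and the median was 0.19. Dusp6, a phosphatase that dampens ERK, had a ratio of 1.31 (1.12 to 1.53) and Klf2 1.26 (1.08 to 1.49), while Fos had 1.02. Glycolysis genes had a median of 0.14 with 12 of 15 above 0, and cholesterol and fatty acid synthesis genes one of 0.09 with 19 of 28 above 0, among them the desaturase gene Fads2 at a ratio of 1.39 (1.05 to 1.84). None of either list reached 1.5-fold.

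Genes of pigmentation and of the mechanical programmes differed little. The 23 measured pigmentation genes had a median log2 ratio of 0.00, with Pmel at 3498 CPM in Prf1-/- lung and 3451 in WT lung and Dct at 3899 against 3666, and 0 of them reached 1.5-fold. The lowest ratios among them were those of Cited1, a transcriptional co-regulator gene, at 0.763 (0.686 to 0.849) and of Ptgds, the prostaglandin D synthase gene, at 0.768 (0.743 to 0.794). In a list of dedifferentiated melanoma genes 5 of 6 measured members lay above 0, with a median of 0.14 and 0 past 1.5-fold. The sum of that list, with 12 members under 20 CPM, had a ratio of 1.12 (1.10 to 1.15). Actin cytoskeleton and MRTF-SRF targets had a median of -0.03 over 25 genes, YAP-TAZ targets 0.10 over 9 and integrins and focal adhesions 0.01 over 12, with 0 members past 1.5-fold in each. Tmsb4x, the thymosin beta gene of actin sequestering, had a ratio of 0.729 (0.678 to 0.783). S phase genes had a median of -0.07 over 32 genes and G2/M genes -0.04 over 43.

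Genes of 3 chromosomes lay to one side of the others. On chromosome 10, 215 of 291 measured genes (73.9%) had a log2 ratio above 0, with a median of 0.09, and the summed level of the chromosome had a ratio of 1.06 (1.05 to 1.06). On chromosome 6, 110 of 357 genes (30.8%) lay above 0, with a median of -0.06 and a summed ratio of 0.961 (0.956 to 0.966). On chromosome 15, 36.4% of 236 genes did, with a median of -0.04 and a ratio of 0.970 (0.964 to 0.976). The medians of all other chromosomes lay between -0.01 and 0.02.

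These shifts were small against the interferon difference and were present on both sides of each chromosome's middle gene. The medians of the genes with lower and with higher coordinates were 0.07 and 0.10 on chromosome 10, -0.06 and -0.06 on chromosome 6, and -0.04 and -0.04 on chromosome 15. On chromosome 10 the median was 0.08 in cells with a hashtag total up to 937, the median of both groups together, and 0.09 in the others. On chromosome 6 it was -0.06 and -0.05, and on chromosome 15 -0.02 and -0.05. The chromosome 15 median was also closer to 0 in cells with under 1500 genes, at -0.01 against -0.06 in those with 1500 and more, while chromosome 10 had 0.09 and 0.08 and chromosome 6 -0.06 and -0.06. Without the members of the interferon lists the chromosome 10 median was still 0.09 and that of chromosome 6 -0.06. Per cell, chromosome 10 held a median of 5.84% of the UMIs in Prf1-/- lung, 5.59% in WT lung and 5.81% in bone, and the 10th percentiles were 5.01%, 4.35% and 5.11%. The 90th percentiles were 6.70%, 6.50% and 6.55%, so the groups stood further apart among the cells with a low share. For chromosome 6 the medians were 6.72%, 6.91% and 6.72%. For chromosome 15 they were 4.49%, 4.66% and 4.76%, so there bone stood above WT lung and Prf1-/- lung below it.

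**Figure D5:**
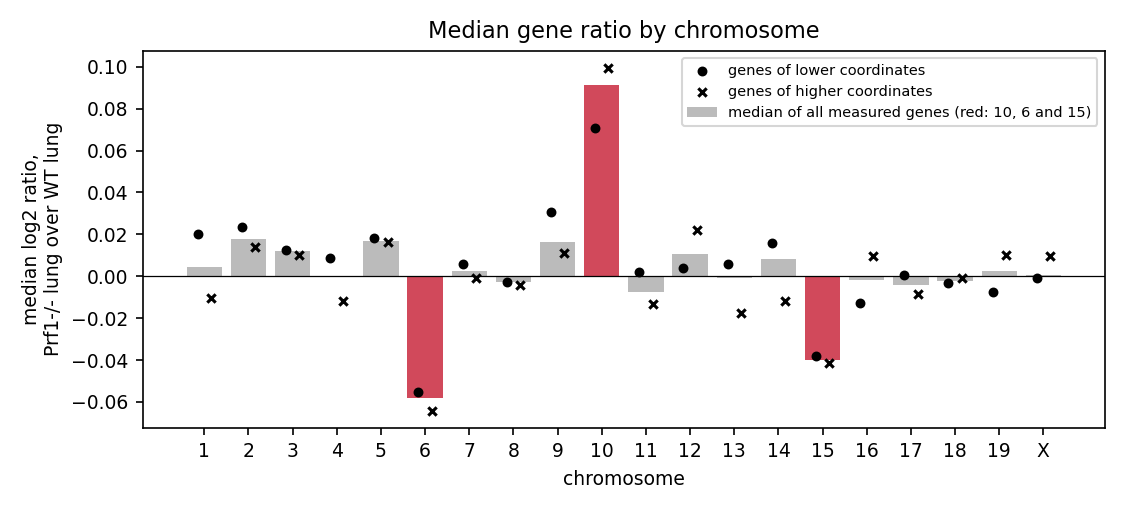
Median log2 ratio of Prf1-/- lung over WT lung of all measured genes by chromosome (bars), with the medians of its genes of lower (circles) and higher (crosses) coordinates. Chromosomes 10, 6 and 15 are in red, with medians of 0.09, -0.06 and -0.04, and both subsets of each lie on the same side of 0.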

How the data were processed

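The authors deposited UMI counts per gene and barcode, and hashtag counts per barcode, from 1 RNA and 1 hashtag library. Tools listed in the submitters' processing notes are Cell Ranger 6.1.2 and Seurat 4.3.0, with the mm10 build, whereas the header of the matrix gives Cell Ranger 6.0.0. Reads per cell and their handling before the matrices were not used here, and a deposited cell table that the labels mention was not analysed here. The RNA matrix held 35150895 counts over 32285 genes and 15961 barcodes, of which 4204 were among the 6208 barcodes of the hashtag matrix. Both lung groups came from that 1 run.

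From these counts, cells were filtered and assigned as stated above, 242 filtered barcodes were left out for their hashtag ratio (which also removes droplets with 2 hashtags), and no doublet caller was run. Counts were summed per group and scaled to CPM with Python 3.11.15, numpy 2.4.6, scipy 1.17.1 and pandas 2.3.3. Levels have Poisson intervals, ratios exact conditional binomial intervals and shares Clopper-Pearson intervals, which cover counting error only. Genes needed a mean of 20 CPM. The calculation was checked on simulated data. The members, the 35 gene lists and the 14 marker lists were chosen with earlier results of these data known. Named genes are the 15 most extreme in each direction (at least 1.25-fold, interval without 1), the 4 with most UMIs and 4 most extreme of each of the 11 primary lists, 2 and 2 of the 24 others, and Prf1. Other genes past 1.5-fold are named as such after their values were seen. Chromosomes (98.7% of measured genes matched) and promoters came from RefSeq tables of GRCm38.p6, matched by symbol. The comparison by chromosome was added after the data had been seen. Some items are not reported here.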

Additional observations from a re-analysis of the deposited data

How the results depend on the processing

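The direction of the immunoproteasome, MHC class I, GTPase, effector and abundant membrane sums was the same under all 15 alternatives of cells, scaling and weights. Over them the GTPase ratio ran from 0.419 to 0.668, the effector ratio from 0.623 to 0.756, the immunoproteasome ratio from 0.669 to 0.833 and the MHC class I ratio from 0.846 to 0.947. Of 2550 values for 170 named genes, 142 lay on the other side of 0 from the reported value, 76 of them beyond its counting interval. Only 2 were of genes past 1.5-fold, Clk1 at -0.088 and Spast at -0.24 on the log2 scale in cells with at least 2000 genes. Apart from these 2, 276 values lay outside that interval. Depth limits the counts of genes: with fewer UMIs or a lower floor more genes pass 1.5-fold in both directions. No paired analysis was possible because each condition is 1 hashtag group.

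Lower and higher genes (32 and 11) numbered 54 and 18 at a hashtag ratio of at least 4, 332 and 251 in cells with at least 2000 genes (145 of Prf1-/- lung and 126 of WT lung) and 63 and 64 after thinning. They numbered 81 and 42 at hashtag totals up to 937, 76 and 69 above it, and 185 and 199 in cells with fewer than 3 cell cycle UMIs. With 3 or more, 18 were higher. They numbered 68 and 41 at a floor of 10 CPM, 14 and 2 at 50 CPM, 761 and 518 with no floor, and 8 and 0 at 2-fold. Without mitochondrial and ribosomal genes in the totals 46 were lower and 20 higher, and with 5 CPM added 6 were higher.

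Ratios of list sums moved as follows. At a hashtag ratio of at least 4 they were 0.705 for the immunoproteasome, 0.884 for MHC class I, 0.455 for GTPases, 0.623 for effectors, 0.571 for MHC class II and 0.827 for chemokines. In cells with at least 2000 genes they were 0.697 for the immunoproteasome, 0.949 for the standard proteasome, 0.668 for GTPases, 0.733 for effectors, 0.840 for receptors and signalling, 1.40 for chemokines, 0.934 for lymphocyte ligands and 0.980 for chaperones. After thinning the effectors were at 0.647. At hashtag totals up to 937 they were 1.00 for the standard proteasome, 0.419 for GTPases, 0.632 for effectors, 0.803 for abundant membrane genes, 0.968 for receptors, 0.492 for MHC class II, 0.816 for chemokines, 1.02 for ligands and 0.985 for chaperones. Above 937 they were 0.669 for the immunoproteasome, 0.941 for the standard proteasome, 0.846 for MHC class I, 0.488 for GTPases, 0.849 for receptors, 0.509 for MHC class II, 0.845 for chemokines, 0.926 for ligands and 0.953 for chaperones. With fewer than 3 cell cycle UMIs they were 0.833 for the immunoproteasome, 0.947 for MHC class I, 0.756 for effectors, 0.914 for abundant membrane genes, 1.00 for MHC class II, 1.08 for chemokines and 0.987 for chaperones, and with 3 or more 0.644 for effectors and 0.817 for abundant membrane genes. The cause of these moves was not tested.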
